A study of Strongylocentrotus purpuratus and Patiria miniata with 14 samples.

Results

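Accessible chromatin around 2 genes of the aboral ectoderm, *CyIIIa* and *Spec2a* (LOC100888959), was called mostly from mesenchyme blastula onward in whole sea urchin embryos. It was often called in 1 replicate of a stage only. However, 6 of the 8 libraries came from later stages, and 59.4% of all merged peak regions also lacked an early blastula peak. Between early blastula and later libraries, the difference in peaks per library did not pass its test in either window with all libraries used. It was 0.333 in both with equal numbers of top peaks per list. The regions described here are the ATAC-seq peaks of 8 *Strongylocentrotus purpuratus* libraries in a pair of windows. The first runs from 19765000 to 19815000 on NW_022145599.1 of Spur_5.0 and holds *CyIIIa*. The second reaches 25 kb to each side of the tested *Spec2a* element and runs from 17998558 to 18048621 on NW_022145596.1. The windows held 12 and 24 peaks, or 36 of the 280526 sea urchin peaks, in a series of 14 libraries and 652219 peaks that also covers a sea star. Whole embryos of wild-type genotype (WT) were sampled at 4 ages, with 2 replicates per age. These were early blastula at 11 h post-fertilization (hpf), mesenchyme blastula at 24 hpf, the prism larva at 66 hpf and the pluteus larva at 72 hpf. None was treated, so all groups share the wild-type genotype and differ in age. The paper also profiled the sea urchin late gastrula, which falls between mesenchyme blastula and prism larva, in a separate deposit not used here. Later stages below therefore means those of these libraries only. Separate cultures are not stated for the replicates, and p-values therefore measure only the spread between these libraries, which may be technical.

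The aboral ectoderm is the epithelium that covers most of the larva on the side away from the mouth, and its differentiation genes are among the classic territorial markers of the embryo. *CyIIIa* encodes a cytoskeletal actin and *Spec2a* an EF-hand protein that binds calcium, of the troponin C superfamily. The middle CRM of *CyIIIa* is a cis-regulatory module of the upstream region of the gene and holds a target site of a Runx transcription factor. The RSR of *Spec2a*, named for its repeat-spacer-repeat layout, is a repetitive sequence that acts as an enhancer through sites for Otx, a homeodomain factor. In ATAC-seq a transposase inserts adapters into open DNA, so a peak marks accessible chromatin. Fold enrichment is the ratio of a peak's signal to the local background of its own library, as the authors' peak caller gave it. It is not scaled between libraries and is used here with the rank of each peak within its list. Peaks from any of the 8 libraries that shared 1 bp or more were merged into a cluster.

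The 8 lists held 19469 to 56853 peaks each, and their weakest peaks had a q of 0.0169 to 0.0451. An uncalled site is therefore one below the threshold of that list, not one measured as closed. The lists hold no read counts, so the depth behind each peak is unknown. The prism larva replicate 2 list was the longest and the pluteus larva replicate 2 list the shortest. These libraries had the most and the fewest peaks in the windows, at 9 and 0. Among the other lists the order by length was not kept. Mesenchyme blastula replicate 2, with 31112 peaks, had 7 in the windows, and early blastula replicate 1, with 34923, had 1. Median peak widths were 132 and 129 bp at early blastula and 171 to 241 bp in the later libraries. In whole embryos, an element open in few cells and one weakly open in many cannot be told apart.

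Around *CyIIIa*, which spans 19786570 to 19791733, no part of the locus was called in both replicates of any stage. The 12 peaks formed 6 clusters, and 0 of the 6 were called in both replicates of a stage, against 31.7% of all 115459 clusters of the 8 lists. Both early blastula lists had 0 peaks. The mesenchyme blastula lists had 2 and 3, replicate 1 first. For the prism larva these numbers were 0 and 4, and for the pluteus larva 3 and 0. All 6 clusters thus came from 4 libraries, and the replicates of the larval stages differed from no peak to several.

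**Figure D1:**
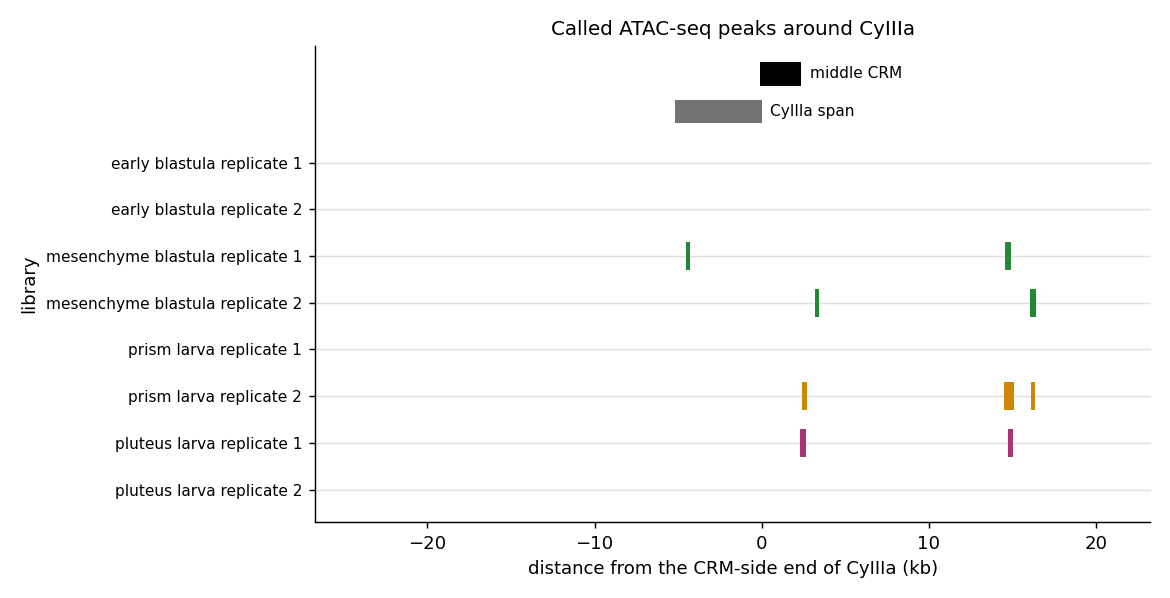
Peaks in the *CyIIIa* window, one row per library, against the distance in kb from the end of the gene span that the middle CRM overlaps. Bars are peaks, drawn at least 250 bp wide, so that neighbours can run together, and the gene span and the CRM stand above. 4 of the 8 libraries have no peak in the window, and the peaks of the others lie mostly above the gene.

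The middle CRM (19791620 to 19794105, 2486 bp, of which 114 bp lie inside the gene span) was overlapped in 1 of 8 libraries, and only at its outer edge. That peak, in pluteus larva replicate 1, ran from 19794098 to 19794205 and shared 8 bp with the CRM, with its summit 52 bp outside it. Its fold enrichment was 6.76, the highest of this window, within the strongest 37.9% of its list. A second peak of the same library began 26 bp farther on, from 19794232 to 19794336, with a fold enrichment of 5.31. The prism larva replicate 2 list held a peak at nearly the same place, from 19794247 to 19794346, with a fold enrichment of 4.85 and within the strongest 71.4% of its list. The summits of these last peaks, at 19794292 and 19794304, were 12 bp apart. Mesenchyme blastula replicate 2 had a single peak beyond them, from 19794959 to 19795113, at a fold enrichment of 4.46. The calls next to the CRM thus came from 3 libraries of 3 stages, all after early blastula, and the other replicate of each of these stages had no peak there.

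Of the other *CyIIIa* clusters, 1 lay on the gene and 2 lay beyond the CRM, 14.6 and 16.1 kb from the gene span. The peak on the gene, from 19787290 to 19787389, was called in mesenchyme blastula replicate 1 with a fold enrichment of 4.01 and a q of 0.00185, within the strongest 96.6% of its list. It was the weakest by rank in both windows. The cluster from 19806297 to 19806843 had peaks in 1 replicate of each later stage. Its strongest peaks had fold enrichments of 6.28 in mesenchyme blastula replicate 1, 6.48 in prism larva replicate 2 and 5.16 in pluteus larva replicate 1, within the strongest 39.8, 41.2 and 57.0% of their lists. It is 1 of 4 clusters of both windows with a peak at each of the 3 later stages (18.2% of all clusters), and all 4 had none at early blastula (11.1% of all clusters). The last cluster, from 19807838 to 19808100, held peaks of mesenchyme blastula replicate 2 (fold enrichments 4.72 and 4.80) and prism larva replicate 2 (5.65). The gene lay at the edge of a long stretch without calls, or within it in the libraries that had no peak in the window. On the side away from the CRM, the nearest peak was 92.3 to 103 kb from the gene in the later libraries and 458 and 476 kb from it at early blastula. On the CRM side, the nearest early blastula peaks were 31.9 and 31.7 kb away, just outside the window. In prism larva replicate 1 and pluteus larva replicate 2 the nearest peak on that side was 307 kb away.

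At *Spec2a*, peaks were called at the RSR and the near end of the annotated gene span, and at several places past the far end. The cluster at the RSR ran from 18023215 to 18024135 on NW_022145596.1 and was called in 5 of 8 libraries, a level of 5 or more that 14.3% of all clusters reached. It took in the whole RSR (18023558 to 18023621, 64 bp) and reached 190 bp into the gene span, which runs from 18023946 to 18032206. The RSR itself was overlapped in 4 libraries: mesenchyme blastula replicate 1, both prism larva replicates and pluteus larva replicate 1. In each of the 4 the peak covered the RSR in full. The nearest peaks were 13.2 and 14.7 kb from it in the early blastula libraries and 30.0 kb from it in pluteus larva replicate 2.

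The peaks at the RSR differed in extent and strength between libraries. The mesenchyme blastula replicate 1 peak ran from 18023322 to 18023818, with a fold enrichment of 4.76 and its summit 12 bp from the RSR. In prism larva replicate 1 the peak from 18023412 to 18023757 had its summit inside the RSR and a fold enrichment of 4.29. The prism larva replicate 2 peak was the widest of either window (916 bp, from 18023220 to 18024135) and had a fold enrichment of 7.41, with its summit 104 bp from the RSR on the side away from the gene. In pluteus larva replicate 1 a 621 bp peak from 18023215 to 18023835 had a fold enrichment of 4.65 and its summit 131 bp from the RSR toward the gene. By p-value these peaks stood, in the same order, in the top 47.9, 66.8, 20.4 and 48.3% of the peaks of their libraries. The prism larva replicates thus shared the call but differed in its strength, with −log10 p-values of 7.16 and 20.1.

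The part of the cluster at the near end of the gene span was called apart from the RSR in some libraries. The gene table gives no strand, so it is not known here whether this end is the start of the gene. Mesenchyme blastula replicate 2 had its only peak here from 18023930 to 18024074, with a fold enrichment of 4.15, its summit inside the gene span and no overlap with the RSR. Prism larva replicate 1 had a peak from 18023971 to 18024070 (fold enrichment 3.92), separated by 213 bp from its RSR peak. The summits of these 2 peaks, at 18024004 and 18024010, were nearly the same. The replicates of mesenchyme blastula were thus called on either side of a gap of 111 bp and were joined into 1 cluster only through the wide peak of prism larva replicate 2, which spanned both parts. Only at prism larva did peaks of both replicates overlap each other.

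**Figure D2:**
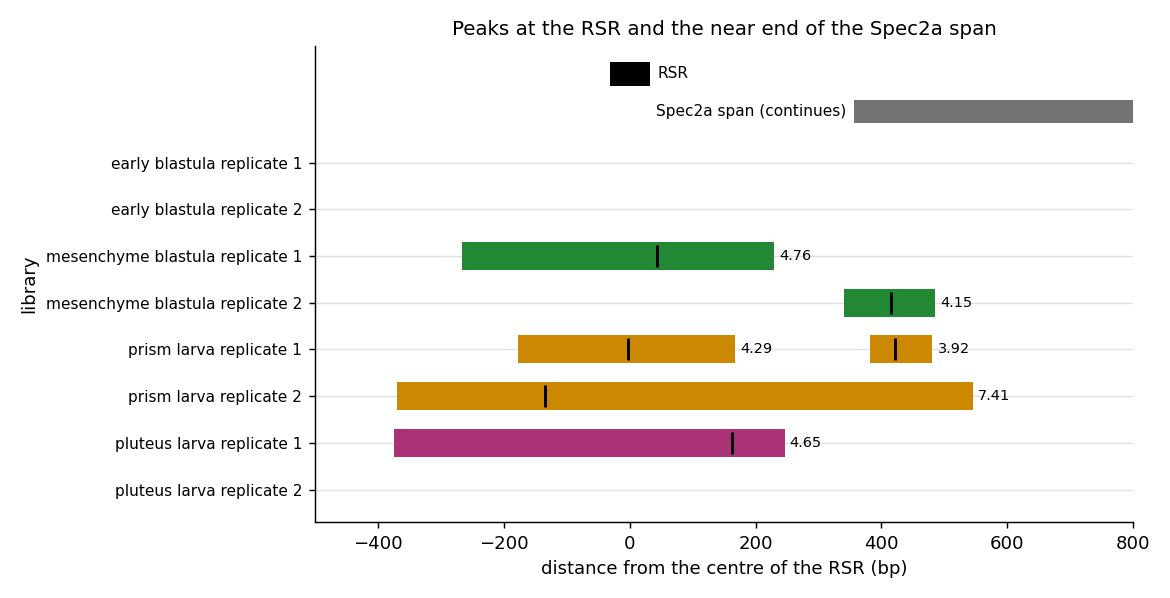
Peaks at the RSR and the near end of the *Spec2a* span in each library, by distance in bp from the centre of the RSR. Bars are peaks to scale, ticks are their summits and the numbers are fold enrichments. Peaks of 4 libraries cover the RSR, and mesenchyme blastula replicate 2 is called only at the near end of the gene span, at 4.15.

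The remaining 7 *Spec2a* clusters lay mostly on the far side of the gene. The most recurrent of them, from 18039558 to 18039910 and 7351 bp past the end of the gene span, was called in 5 libraries: both replicates of mesenchyme blastula, both of prism larva and pluteus larva replicate 1. Its fold enrichments were 5.93 and 4.75 in the mesenchyme blastula replicates and 4.44 and 7.72 in those of the prism larva, with 5.31 in the pluteus library. The 7.72 was the highest of either window. Its peaks ranked within the strongest 25.6 to 78.8% of their lists, and their summits lay within 130 bp of each other. The libraries that called this distant cluster were the ones that called the cluster at the RSR. A cluster just past the gene, from 18032792 to 18033139, was called in 1 replicate of each later stage, with strongest fold enrichments of 4.40 in mesenchyme blastula replicate 1, 5.42 in prism larva replicate 2 and 4.71 in pluteus larva replicate 1.

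Early blastula peaks appeared at 2 narrow clusters between these, and in a different one in each replicate. The cluster from 18036802 to 18036908 was called in early blastula replicate 1 (fold enrichment 4.19), mesenchyme blastula replicate 2 (4.23) and prism larva replicate 2 (3.87). The one from 18038331 to 18038501 was called in early blastula replicate 2 (4.29) and in both mesenchyme blastula replicates (4.98 and 3.94). Their summits lay within 12 and 21 bp of each other across libraries. Neither was called at pluteus larva. The other 3 clusters were called in 1 library each. They lay from 18010176 to 18010275 (prism larva replicate 2, fold enrichment 3.97), from 18022489 to 18022595 (pluteus larva replicate 1, 3.96) and from 18048299 to 18048477 (mesenchyme blastula replicate 1, 5.86). The first 2 were the only clusters on the RSR side of the gene besides the one at the RSR.

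**Figure D3:**
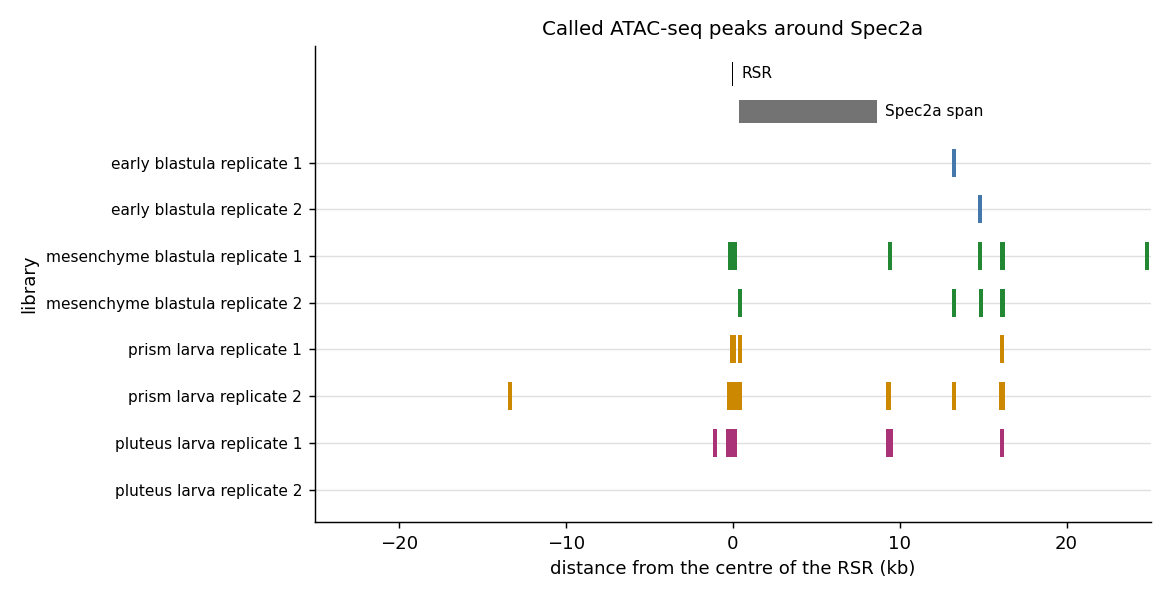
Peaks in the *Spec2a* window, one row per library, against the distance in kb from the centre of the RSR. Bars are peaks, drawn at least 250 bp wide, so that neighbours can run together, and the gene span and the RSR stand above. The cluster that holds the RSR and the one 7351 bp past the gene are each called in 5 libraries, 4 of which have a peak on the RSR itself, and each early blastula library has 1 peak.

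Over both windows, calls were mostly absent at early blastula and differed between replicates. Of the 14 clusters, 12 had no peak in either early blastula library, a pattern that 59.4% of all clusters showed. A peak in at least 1 replicate was found for 2 of the 14 at early blastula (40.6% of all clusters) and for 10 at mesenchyme blastula (39.5%). The prism larva had 8 (52.8%) and the pluteus larva 7 (33.7%). The clusters called in 4 or more libraries numbered 2 (19.9% of all clusters), both in 5. Another 6 of the 14 were called in 1 library only (55.4% of all clusters). Called in both replicates of at least 1 stage were 3 (31.7% of all clusters), all near *Spec2a* and all after early blastula. By stage, 3 of the 14 were called in both replicates at mesenchyme blastula (15.5% of all clusters), among them the RSR cluster with its peaks 111 bp apart, 2 at prism larva (22.4%), 0 at early blastula (8.90%) and 0 at pluteus larva (11.5%). No cluster was called in all 8 libraries, as 2.65% of all clusters were. With so few clusters these shares are descriptions and show nothing particular to the windows. Most calls were weak for their lists. The stronger 50% held 11 of the 36 peaks, 3 of 12 near *CyIIIa* and 8 of 24 near *Spec2a*, and the strongest 25% held 1. The median peak was within the strongest 62.4% of its list near *CyIIIa* and 65.1% near *Spec2a*.

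**Figure D4:**
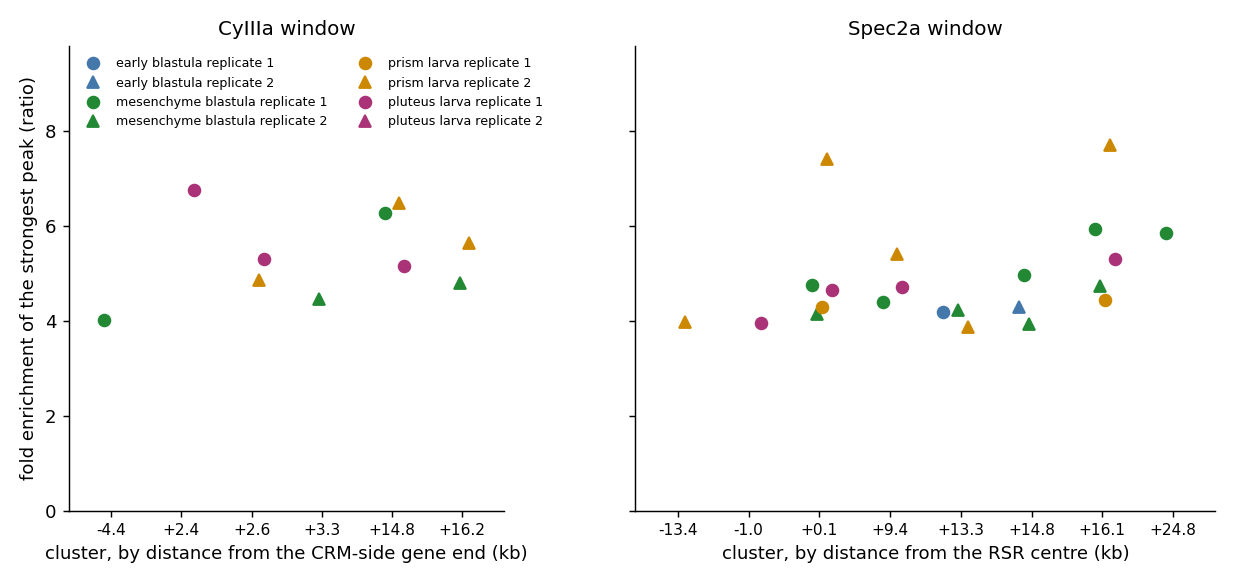
Fold enrichment (ratio) of the strongest peak of each library in each cluster, with clusters ordered by position and labelled by distance in kb from the CRM-side end of *CyIIIa* or from the RSR centre. Circles are replicate 1 and triangles replicate 2. The highest values, 7.72 and 7.41, are prism larva replicate 2 peaks near *Spec2a*, and pluteus larva replicate 2 has no point.

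No region in the windows passed the reproducibility limit applied here, though this depended on how replicate peaks were paired. The irreproducible discovery rate (IDR) is computed from the ranks of the p-values in both replicates. For a shared region, it estimates the share of noise among all shared regions at least as consistent as that one. It is not the region's own probability of being noise. At a limit of 0.1, 54.1% of all regions shared by the replicates of a stage passed. The windows held 4 shared regions, all near *Spec2a*, and 0 passed. When replicate peaks had to share 50% of both, 1 region near *Spec2a* passed. With replicate peaks joined at any overlap, the cluster from 18039558 to 18039910 came closest, at an IDR of 0.135 at mesenchyme blastula. It had 0.298 at prism larva. The RSR region had 0.255 at prism larva, and the cluster from 18038331 had 0.236 at mesenchyme blastula.

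Peaks per library were compared between early blastula and the later stages, the question being whether these loci gain accessible sites after early blastula. Near *Spec2a* each early blastula library had 1 peak. The mesenchyme blastula replicates had 5 and 4, those of the prism larva 3 and 5, and those of the pluteus larva 5 and 0. The later libraries averaged 3.67 ± 1.97 (SD, n = 6), a difference of 2.67 from early blastula (n = 2) that did not pass a two-sided exact permutation test (p = 0.214, where 0.0357 is the smallest p that 28 splits allow). The 6 later libraries pool 3 stages, so in both windows the SD mixes stage with replicate and the test treats these stages as 1 group. Every later library but pluteus larva replicate 2 had more peaks than either early blastula library. Without that library, whose list was the shortest, the difference was 3.40 (exact permutation p = 0.0476, the smallest that 21 splits allow, against 0.0476 to 1 over all alternatives). With equal numbers of top peaks from each list, the difference was 0.333 near *Spec2a* and 0.333 near *CyIIIa* (exact permutation p = 1 for both). Near *CyIIIa* the later mean was 2.00 ± 1.67 (SD, n = 6) against 0 at early blastula, and the groups overlapped, since 2 later libraries also had 0 (exact permutation p = 0.357). The early blastula lists also had narrower peaks, as given above, and the part of that in these counts was not tested. Single stages, with 2 libraries each, were not tested against each other, since the smallest p of that exact permutation test is 0.333.

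The *Spec2a* window had more peaks than the *CyIIIa* window. The means were 3.00 ± 2.07 and 1.5 ± 1.69 peaks per library (SD, n = 8), and the count was higher near *Spec2a* in 7 libraries and 0 in both windows in pluteus larva replicate 2. The mean paired difference, *CyIIIa* minus *Spec2a*, was -1.5 ± 1.07 (SD, n = 8; two-sided exact sign-flip permutation test, p = 0.0156). The difference no longer passed with equal numbers of top peaks from each list (exact p = 0.0625) or within 10 kb to each side of the windows' middles (exact p = 0.125). Among 18039 bins of 50 kb over the genome, the median bin had 12 peak summits over the 8 libraries and the upper quartile was 24. As many as in the *CyIIIa* window were found in 51.0% of bins, and as many as in the *Spec2a* window in 25.6%. At least 1 summit was found in 63.3 and 56.4% of bins for the replicates of early blastula and in 67.4 and 63.3% for those of mesenchyme blastula. The shares were 65.0 and 75.6% for the prism larva and 66.1 and 51.2% for the pluteus larva. Early blastula left 29.9% of bins without a summit in either library, and pluteus larva replicate 2 left 48.8%.

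Other tested elements set the calls at the CRM and the RSR in context. Of 41 tested elements that map uniquely, 70.7% had a peak in at least 1 library, 48.8% in at least 4, 14.6% in all 8 and 7.32% in exactly 1. The RSR, at 4 libraries, was among the 20 elements that reached that level, and the middle CRM was 1 of 3 with a single library. For an oral ectoderm gene, 5P, INT and 3P of *nodall*, whose Nodal ligand patterns the oral side, had peaks in 6, 6 and 2 libraries. Like the RSR, 5P and INT were uncalled at early blastula, but unlike it they were called in mesenchyme blastula replicate 2 and pluteus larva replicate 2. Being uncalled at early blastula was the common case, since replicates 1 and 2 of that stage overlapped only 9 and 8 of the 41 elements. The 3P element had the opposite pattern, with peaks in both early blastula libraries, within the strongest 11.6 and 11.3% of their lists, and in no later library. Where the RSR was called, its peak was weaker than that of most overlapped elements: 16 of the 22 overlapped in mesenchyme blastula replicate 1 had a stronger peak by rank, 17 of 20 and 15 of 26 in the prism larva replicates and 17 of 22 in pluteus larva replicate 1. These elements differ in length, from which their chance of an overlap was not separated.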

How the data were processed

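ATAC-seq peak lists of 8 sea urchin whole-embryo libraries were used, grouped by the hpf in the sample titles, and the sea star lists were not. The titles name no stage, and the stage names were assigned to these ages. Per the paper, the authors aligned reads with Bowtie2, removed duplicates with SAMtools, offset read starts by 4 bp on the forward and 5 bp on the reverse strand, kept short fragments and called peaks in each replicate with MACS2. The deposited columns are a fold enrichment (ratio), −log10 p-values and −log10 q-values, and a score that restates the q-value. Depth in reads is not held in the lists.

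Python 3.11.15 with numpy 2.4.6, pandas 2.3.3, scipy 1.17.1 and matplotlib 3.10.9 was used, and the joining of peaks was checked against bedtools 2.31.1. Gene spans come from RefSeq's table for Spur_5.0, and their scaffolds from the tested elements of the study's supplementary table, since the gene table names none. Neither strand nor neighbouring genes were used. The IDR program was not at hand, and its copula mixture was coded from the method's definition, taking the strongest peak of each replicate in a joined region. On 20000 simulated pairs in each of 3 settings, 9.53 to 10.6% of calls were false and 68.1 to 97.7% of true pairs were recovered. These pairs were drawn from the fitted kind of mixture and not cut at a threshold, as the peak lists are. They check the code and not the error rate on these lists. Bins were 50 kb, tiled on each scaffold up to its last peak.

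The members, windows and comparisons were chosen with earlier results of these data known. Clusters that overlap a tested element or a member gene, or were called in both replicates of a stage, are described in full, and so are the others, being few. Alternatives are given in the closing section.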

Additional observations from a re-analysis of the deposited data

How the results depend on the processing

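The 6 and 8 clusters fell to 2 and 5 (*CyIIIa* and *Spec2a* windows) with equal numbers of top peaks per list, where the paired difference between the windows was -1 (exact permutation p = 0.0625). Within 10 kb of the windows' middles the *Spec2a* clusters numbered 3, those called in both replicates of a stage 1, and the paired difference was -0.75 (exact permutation p = 0.125). The part of fewer peaks and of a smaller window in these changes was not tested. The middle CRM was overlapped in 0 libraries when 50% of the shorter of peak and element had to be shared, and in 0 to 1 with 1 replicate left out, the 0 being without pluteus larva replicate 1. Replicated regions near *Spec2a* numbered 4 with no IDR and 1 when replicate peaks had to share 50% of both. With 1 replicate left out, the early blastula difference near *Spec2a* was 2.40 to 3.40 and passed its test only without pluteus larva replicate 2. The replicate number as a block left the differences at 2.00 and 2.67 and changed no call (exact permutation p = 0.438 and 0.250, with 0.0625 the smallest that 16 permutations allow). The labels state no other link between same-numbered libraries, and whether they share a culture or preparation is not known. Their deviations correlated at -0.183 to 0.1004 over 6 pairs of stages, with 1 pair above a limit of 0.1. An alternative chosen after seeing the data, in which peaks of both replicates must overlap each other, left 3 such *Spec2a* clusters, but 4 rather than 5 calls by stage. With equal numbers of top peaks the early blastula differences fell to 0.333 in both windows (exact permutation p = 1). In all, 120 of the values under alternatives were counted as unchanged, 8 counts moved, 2 tests weakened and 1 strengthened. The 120 include small shifts, such as 3 rather than 4 libraries at the RSR with 1 replicate left out. They also include counts of 0 that a left-out replicate or a stricter limit could not raise. The tally is therefore no measure of how firm the results are. Depth limits the calls themselves, since an uncalled site is only below a list's threshold.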

Other observations

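Beyond the windows, the first peak lay at different distances in the early blastula libraries and the later ones. Past the upper end of the *CyIIIa* window the first peak lay 8.59 and 8.40 kb away in the early blastula replicates, against 55.1 to 283 kb in the 6 later libraries. Past the upper end of the *Spec2a* window the first peak lay 4.77 to 4.95 kb away in all 6 later libraries, pluteus larva replicate 2 included, and 41.7 and 130 kb away in the early blastula replicates. Below that window the first peak lay 6.83 to 17.85 kb away in the later libraries and 22.8 and 25.7 kb away at early blastula. These distances were noticed in the data and no test was run on them. Of the 36 peaks in the windows, 9 had the smallest width in the lists, 100 bp, as 11.9% of all sea urchin peaks did.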
